A study of Mus musculus with 9 samples.

Results

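The VEGF and angiopoietin angiogenic factors were followed in cultured mouse heart cells. They are 10 of the 54532 genes in the deposited table, taken by gene name: the ligand genes Vegfa, Vegfb, Vegfc, Vegfd and Pgf, the angiopoietin genes Angpt1 and Angpt2, the angiopoietin-like gene Angptl4, and the co-receptor genes Nrp1 and Nrp2. No measured value entered the choice, and each name matched 1 gene. RNA was sequenced from 9 libraries in 3 groups of 3. pECDCs are primary cardiosphere-derived cells that were grown from the epicardium of adult C57BL/6 mice. Their label gives passage 0, while the methods of the study give passage 3 for pECDCs. iECDCs are such cells after transduction with a lentivirus that carries hTERT, the catalytic subunit of human telomerase, and selection with puromycin, and they were sequenced at passage 30. The SB431542 libraries are labelled as immortalized cells of the same strain at passage 30 that received SB431542 for 3 days, a compound that blocks the kinase of TGF-β type I receptors. The methods of the study name an epithelial line derived from pECDCs for such libraries, and the labels were followed here. Cdkn2a, which encodes cell cycle inhibitors and was chosen after its values were seen, had 407 to 562 counts in pECDC, 0 to 1 in iECDC and 0 in SB431542 libraries. No vehicle-treated group was analysed here, and against pECDCs the SB431542 libraries differ in transduction and passage as well as in the inhibitor.

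VEGF ligands are secreted dimers that bind receptor tyrosine kinases on endothelial cells. VEGF-A acts through VEGFR1 and VEGFR2 and is the main driver of new blood vessels. VEGF-B and placental growth factor bind VEGFR1, and VEGF-C and VEGF-D bind VEGFR3 and act on lymphatic vessels. Angiopoietins bind the receptor Tie2, on which angiopoietin 1 acts as an agonist and angiopoietin 2 mostly as a context-dependent antagonist, and the angiopoietin-like protein encoded by Angptl4 inhibits lipoprotein lipase and does not use Tie2. Neuropilins bind both VEGFs and class 3 semaphorins. Cardiosphere-derived cells are known to secrete angiogenic factors, and in the heart the epicardium signals to the growing coronary vessels.

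Total counts were 19462912 to 23951392 per pECDC library, 16568306 to 20204216 per iECDC library and 17063137 to 20849975 per SB431542 library. Among libraries of a group, 2 stood apart. The SD of the log2 ratio between pairs of libraries was 0.474 and 0.470 for pairs with iECDC replicate 3 against 0.331 for the other iECDC pair, and 0.617 and 0.612 for pairs with SB431542 replicate 2 against 0.302 for the other SB431542 pair. Where leaving out these libraries changed a call on one of the 10 genes, the value without them is given. Fits without them covered all genes, but single results were kept for the 10 genes only, so none is given for the other genes named. Nothing in the labels says that the libraries of a group came from separate cultures or animals. The methods of the study speak of 2 biological replicates in each condition and its legends of n = 3, without saying how these were obtained. The p-values therefore measure the spread between these libraries, which may be technical.

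The sequences before the start sites of 3 ligand genes are shown for the genes that carry the results on SB431542 libraries against iECDCs, where Vegfd and Vegfb rose and Vegfa did not pass the test. The sequences are from RefSeq on GRCm38.p6, in which 7 of the 10 genes had an entry, and bases that the annotation places in exons were left out. Capitals mark matches on either strand to the hypoxia response core (ACGTG or GCGTG) or to the SMAD-binding letters CAGAC. The AP-1 motif TGANTCA was searched as well and had no match in any of them. None of these motifs overlapped another in the sequences.
Vegfd (chrX:164373272-164373377, + strand): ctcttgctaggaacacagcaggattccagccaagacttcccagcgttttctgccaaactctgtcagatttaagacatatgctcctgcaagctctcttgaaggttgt
Vegfb (chr19:6987652-6987901, - strand): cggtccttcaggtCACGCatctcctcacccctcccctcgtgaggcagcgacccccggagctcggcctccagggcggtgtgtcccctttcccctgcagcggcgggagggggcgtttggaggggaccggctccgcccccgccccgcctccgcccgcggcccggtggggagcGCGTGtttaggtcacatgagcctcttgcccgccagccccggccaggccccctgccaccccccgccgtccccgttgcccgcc
Vegfa (chr17:46032378-46032627, - strand): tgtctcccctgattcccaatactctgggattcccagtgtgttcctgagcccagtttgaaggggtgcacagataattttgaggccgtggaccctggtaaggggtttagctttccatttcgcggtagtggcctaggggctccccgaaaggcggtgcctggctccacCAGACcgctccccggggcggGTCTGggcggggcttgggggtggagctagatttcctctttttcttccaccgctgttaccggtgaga
The Vegfb sequence held 2 hypoxia cores, 237 and 81 bases before the RefSeq start, and the Vegfa sequence held 2 SMAD matches, 86 and 66 bases before it. The 106 bases printed for Vegfd, from 250 to 145 bases before its RefSeq start, held no match, and the bases nearer that start were not searched. Among 32851 mouse promoters, 38.6% held the hypoxia core, 42.2% the SMAD letters and 6.75% the AP-1 letters within 250 bases before the start. In the 106 bases from 250 to 145 before the start, 17.0%, 20.8% and 2.66% did. Such matches describe letters only and were not tested as binding sites.

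In pECDCs Vegfa was the most abundant of the 10 mRNAs, at 55.1 ± 0.868 FPKM (counts scaled by gene length and by the size of the library, mean ± SD, n = 3), above 93.3% of the 14162 genes tested in any comparison. Angptl4, Vegfd, Vegfb and Nrp1 followed at 24.9 ± 0.496, 21.1 ± 0.805, 19.3 ± 0.678 and 18.8 ± 0.574 FPKM, and the ranges of Vegfb and Nrp1 overlapped. Vegfc stood at 5.53 ± 0.131 FPKM, and Nrp2, Angpt2, Pgf and Angpt1 were at or under 1.06 FPKM in every pECDC library. The ranges of Angpt2 and Pgf also overlapped. In iECDCs Angptl4 and Vegfa shared the top with overlapping ranges, at 44.8 ± 9.76 and 43.0 ± 11.4 FPKM. In the SB431542 libraries Vegfd led at 132 ± 78.9 FPKM, above 97.7% of the genes tested, and its range reached into that of Vegfa, at 40.4 ± 4.20 FPKM. Angpt1 was the lowest of the 10 in all 9 libraries.

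**Figure D1:**
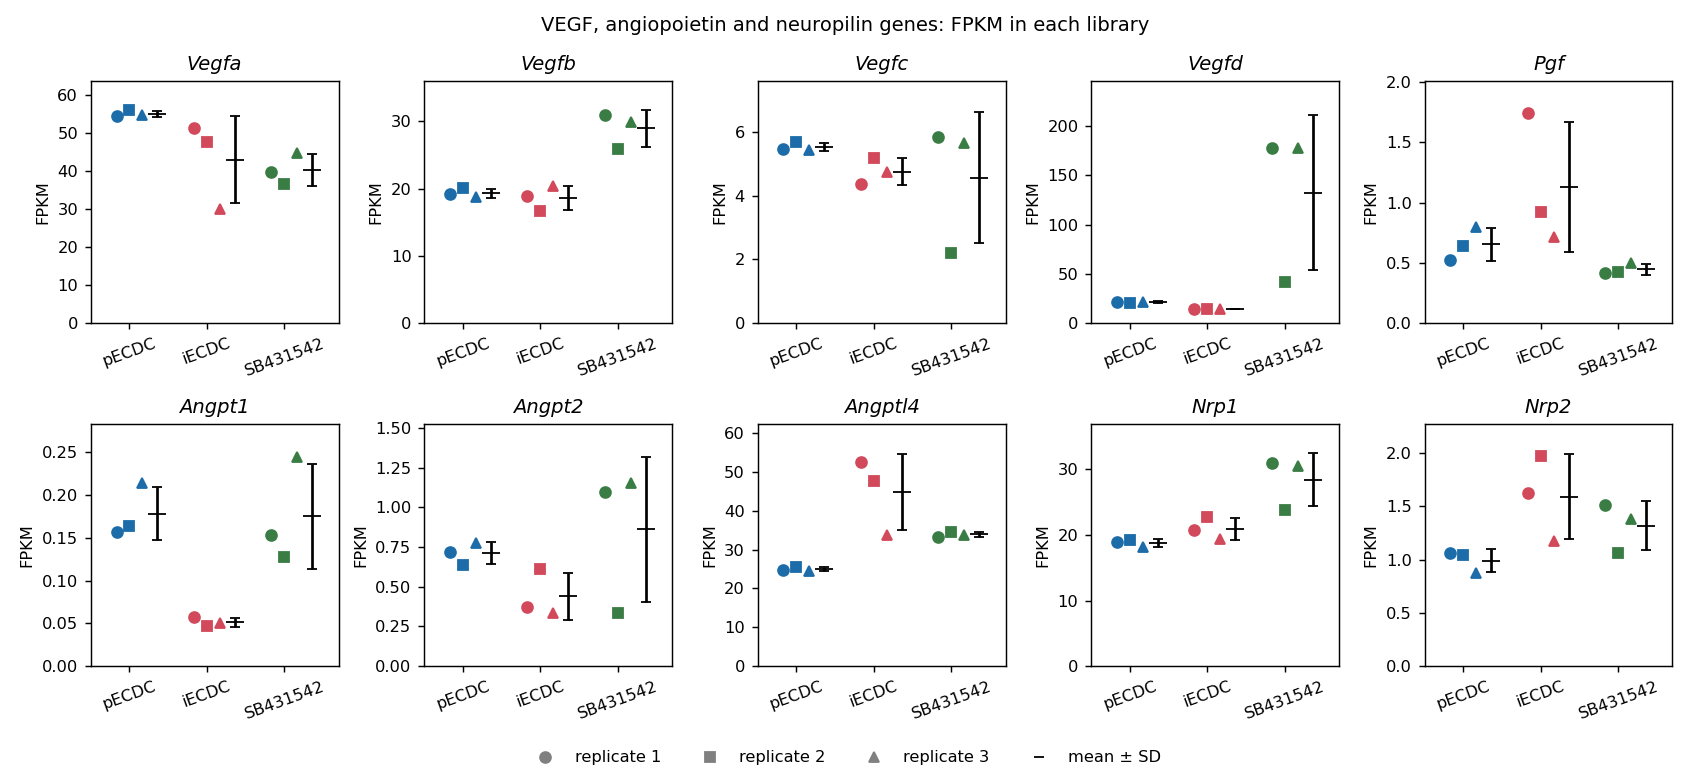
FPKM of the 10 genes (vertical axes, each on its own scale from 0) in the 3 groups on the horizontal axes, where each symbol is 1 library, its shape gives the replicate number and the black bar is the mean ± SD of 3 libraries. Vegfd stands at 178 FPKM in 2 SB431542 libraries and at 41.3 in SB431542 replicate 2, against at most 21.7 in the other groups.

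Between iECDCs and pECDCs, 2 of the 10 genes were higher and 2 lower at an edgeR adjusted p under 0.05, where 7.21% of the 13752 genes tested were higher and 9.21% lower. Angptl4 and Nrp2 rose and Vegfd and Angpt1 fell. In SB431542 libraries against iECDCs, 4 of 10 were higher (Vegfb, Vegfd, Angpt1 and Nrp1) and 1 was lower (Pgf), where 16.0% of 13559 genes were higher and 14.0% lower. Against pECDCs, 4 of 10 were higher (Vegfb, Vegfd, Angptl4 and Nrp1) and 1 was lower (Vegfa), where 17.9% of 14015 genes were higher and 17.0% lower. In such bulk libraries, fewer cells that express a gene and less of its mRNA per cell cannot be told apart. All 10 genes passed the filter on low counts in each comparison, Angpt1 against or in iECDCs only through the other group. Their median log2 fold change was -0.15, 0.20 and 0.35 in the order given, against -0.0018, 0.0015 and 0.0068 over all genes tested. The comparisons share libraries pairwise, so they are not independent of each other. Without iECDC replicate 3, 7 of the 10 genes passed in iECDCs against pECDCs, with Vegfa, Pgf and Nrp1 added to the 4 named above. In that fit 4467 of all genes passed, against 2258 of 13752 with all libraries. Without iECDC replicate 3 and SB431542 replicate 2, an alternative chosen after seeing the data, 9 of the 10 passed in SB431542 libraries against iECDCs, all but Vegfc. There 8951 of all genes passed, against 4061 of 13559 with all libraries of these groups. In that comparison 2 of the 10, Vegfb and Vegfd, passed when any 1 of iECDC replicates 1 and 2 and SB431542 replicates 1 and 3 was left out.

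**Figure D2:**
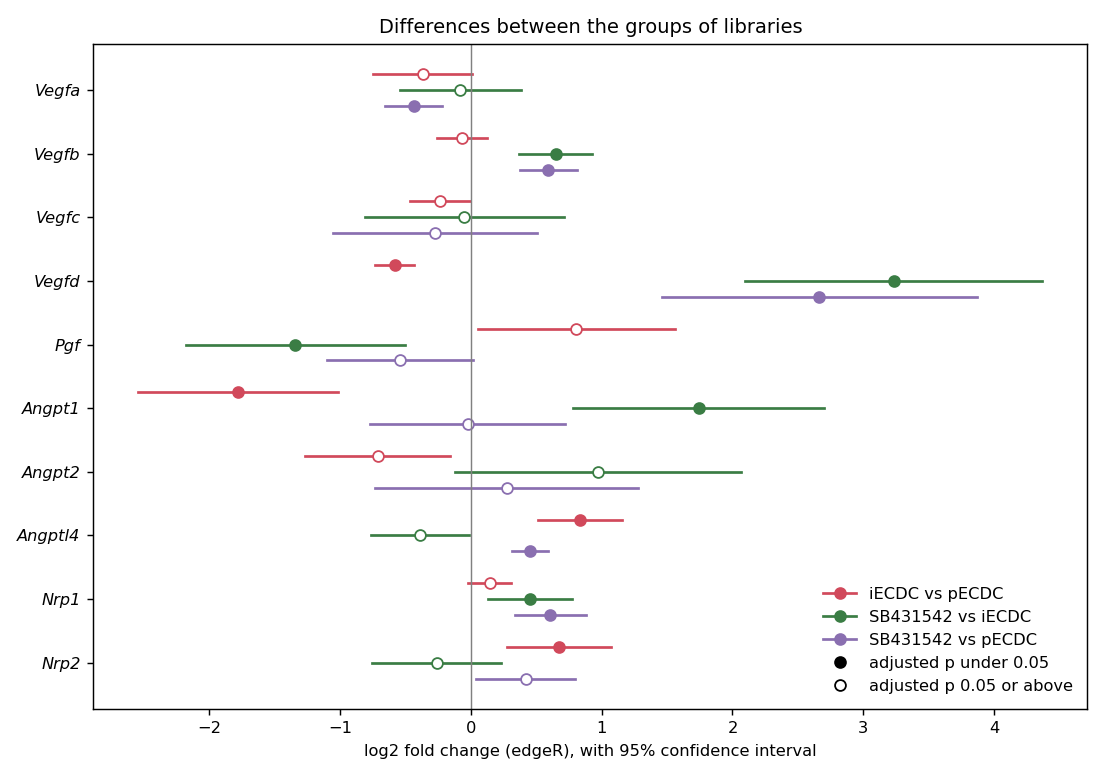
Log2 fold change of each gene (horizontal axis) with its 95% confidence interval from edgeR, in iECDC against pECDC libraries (red), SB431542 against iECDC libraries (green) and SB431542 against pECDC libraries (purple), with filled symbols for an adjusted p under 0.05. Vegfd lies at -0.58, 3.23 and 2.67 in these comparisons, and Angpt1 at -1.78, 1.74 and -0.03.

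Vegfd (ENSMUSG00000031380, chromosome X, 164373378 to 164402650, + strand), which encodes a growth factor of lymphatic vessels, had the largest change of the 10 genes in the SB431542 libraries. Its FPKM was 21.3, 20.1 and 21.7 in pECDC replicates 1, 2 and 3, 13.8, 14.2 and 14.7 in iECDC, and 178, 41.3 and 178 in SB431542 libraries. The groups did not overlap: every iECDC library was under every pECDC library, and every SB431542 library was above both groups, with replicate 2 much nearer to them than the other two. The counts behind these values were 544 to 1259 in the 6 untreated libraries and 7518, 2093 and 7744 in SB431542 replicates 1, 2 and 3. Against iECDCs the log2 fold change was 3.23 ± 0.495 (SE), a 9.40-fold increase (edgeR adjusted p = 0.0035). Against pECDCs it was 2.67 ± 0.512, a 6.34-fold increase (edgeR adjusted p = 0.0080). Without SB431542 replicate 2 these log2 fold changes were 3.66 and 3.09, and both calls held in each alternative fit. In iECDCs against pECDCs Vegfd fell by 0.58 on the log2 scale (SE 0.0662, edgeR adjusted p = 0.00059). That smaller difference did not pass when all 9 libraries shared one estimate of the spread (log2 fold change -0.58, adjusted p = 0.46).

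Vegfa (ENSMUSG00000023951, chromosome 17, 46016993 to 46032369, - strand) encodes the central angiogenic ligand. Its FPKM was 54.5, 56.1 and 54.7 in pECDC replicates 1, 2 and 3, 51.4, 47.6 and 30.0 in iECDC, and 39.7, 36.6 and 44.9 in SB431542 libraries. Both other groups lay under the pECDC libraries without overlap, and iECDC replicate 3 was the lowest of the 9. Against pECDCs Vegfa fell in the SB431542 libraries (log2 fold change -0.44 ± 0.0917, edgeR adjusted p = 0.011), a call lost without pECDC replicate 2 (adjusted p = 0.053) and with all 9 libraries in the fit (adjusted p = 0.064). In iECDCs the log2 fold change was -0.37 ± 0.167 with an edgeR adjusted p of 0.17. Leaving out iECDC replicate 3 gave -0.16 (adjusted p = 0.010), so the size of the difference rests on that library, and with all libraries but no filter on low counts it was -0.38 (adjusted p = 0.00051). SB431542 libraries and iECDCs overlapped, with a log2 fold change of -0.08 and a 95% interval of -0.54 to 0.38, and without iECDC replicate 3 and SB431542 replicate 2 it was -0.22 (adjusted p = 0.0084).

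The make-up of the VEGF ligand mRNA differed most in the SB431542 libraries. The summed FPKM of the 5 ligand genes was 101.0, 102.6 and 101.4 in pECDC replicates 1, 2 and 3, 90.1, 84.7 and 70.5 in iECDC, and 254.9, 106.4 and 259.0 in SB431542 libraries. Vegfa made up 54.0% to 54.7% of this sum in pECDC libraries, 42.6% to 57.1% in iECDC and 15.6%, 34.4% and 17.3% in SB431542 replicates 1, 2 and 3. Vegfd made up 19.6% to 21.4%, 15.3% to 20.9%, and 69.8%, 38.8% and 68.7%. Thus Vegfa was the leading ligand mRNA in all 6 untreated libraries and Vegfd in all 3 SB431542 libraries. The ratio of Vegfd to Vegfa FPKM was 0.359 to 0.397 in pECDC and 0.268 to 0.490 in iECDC libraries, and 4.49, 1.13 and 3.96 in SB431542 replicates 1, 2 and 3. These shares are of mRNA per length, and no share was tested.

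**Figure D3:**
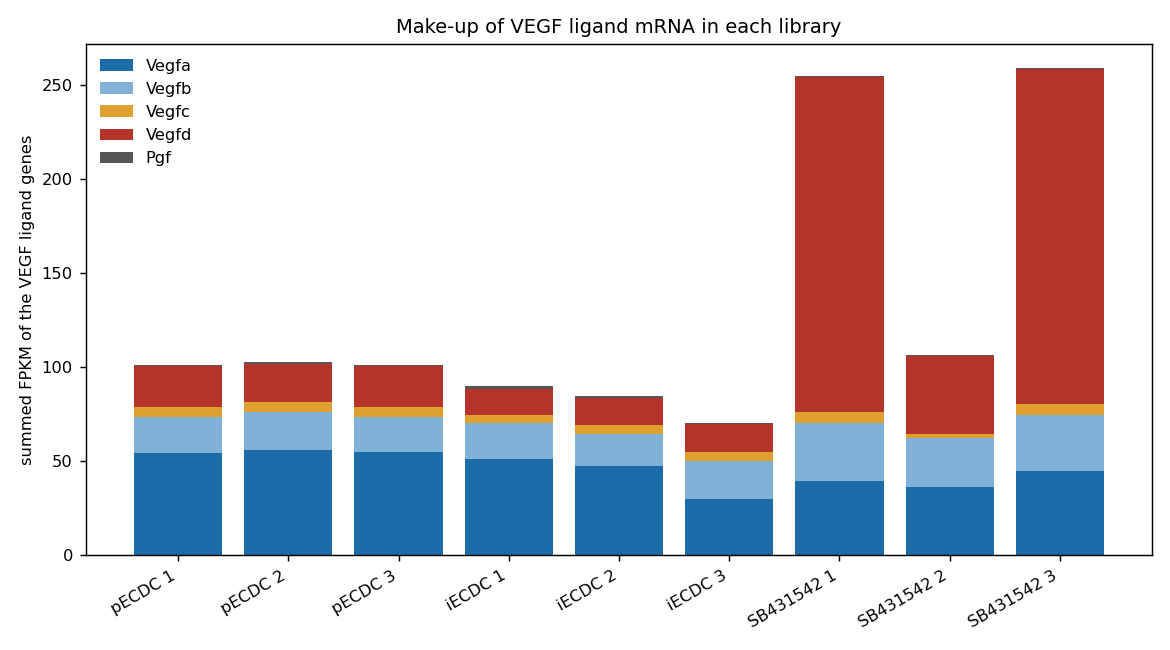
Summed FPKM of the 5 VEGF ligand genes (vertical axis, from 0) in each of the 9 libraries (horizontal axis), with 1 bar per library divided by gene. The Vegfd segment is 69.8% and 68.7% of the bar in SB431542 replicates 1 and 3, 38.8% in replicate 2 and at most 21.4% in the other libraries.

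Vegfb (ENSMUSG00000024962, chromosome 19, 6982473 to 6987651, - strand), a ligand of VEGFR1 that is known for roles in the heart and in fatty acid uptake, had FPKM values of 19.2, 20.1 and 18.7 in pECDC replicates 1, 2 and 3, 18.8, 16.7 and 20.3 in iECDC, and 31.0, 25.9 and 30.0 in SB431542 libraries. The pECDC and iECDC ranges overlapped, and every SB431542 library was above both. The increase was 1.57-fold over iECDCs (log2 fold change 0.65 ± 0.122, edgeR adjusted p = 0.0077) and 1.51-fold over pECDCs (0.59 ± 0.0931, edgeR adjusted p = 0.0039). Both calls held in each alternative fit. Between iECDCs and pECDCs the log2 fold change was -0.07 with a 95% interval of -0.26 to 0.13.

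Vegfc (ENSMUSG00000031520, chromosome 8, 54077606 to 54187096, + strand), the other lymphatic ligand, passed the test in no comparison. Its FPKM was 5.48, 5.68 and 5.44 in pECDC replicates 1, 2 and 3, 4.35, 5.19 and 4.73 in iECDC, and 5.84, 2.19 and 5.65 in SB431542 libraries. SB431542 replicate 2 was the lowest of the 9 libraries, while the other two were inside or just above the pECDC range. In SB431542 libraries against iECDCs the log2 fold change was -0.05 (95% interval -0.81 to 0.71) with replicate 2 and 0.28 without it (adjusted p = 0.11). In SB431542 replicate 2 Vegfd was thus above all 6 untreated libraries and Vegfc below all of them.

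Pgf (ENSMUSG00000004791, chromosome 12, 85166635 to 85177790, - strand), which encodes placental growth factor, was weakly expressed. Its FPKM was 0.520, 0.640 and 0.797 in pECDC replicates 1, 2 and 3, 1.74, 0.922 and 0.717 in iECDC, and 0.413, 0.426 and 0.496 in SB431542 libraries, from 21 to 102 counts. All SB431542 libraries were under all others, and iECDC replicate 1 was the highest. Pgf fell by 1.34 on the log2 scale in SB431542 libraries against iECDCs (SE 0.366, edgeR adjusted p = 0.028), a call lost without iECDC replicate 1 (log2 fold change -0.88, adjusted p = 0.10), iECDC replicate 2 (adjusted p = 0.058) or SB431542 replicates 1 or 3 (adjusted p = 0.096 and 0.071). In iECDCs against pECDCs it was 0.81 ± 0.333 (edgeR adjusted p = 0.13), and it passed without iECDC replicate 3 (1.05, adjusted p = 0.0071) and without the filter on low counts (0.79, adjusted p = 0.011).

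The angiopoietin mRNAs were scarce in all groups. Angpt1 (ENSMUSG00000022309, chromosome 15, 42424723 to 42676977, - strand), the gene of the Tie2 agonist, had 20, 17 and 26 counts in pECDC replicates 1, 2 and 3, 6, 4 and 4 in iECDC, and 14, 14 and 23 in SB431542 libraries. The iECDC libraries were under all others, and the pECDC and SB431542 libraries overlapped. The mean FPKM was 0.178 ± 0.0311, 0.0513 ± 0.0053 and 0.175 ± 0.0613, and Angpt1 was above only 1.54% of the genes tested in iECDCs. Angpt1 fell in iECDCs against pECDCs (log2 fold change -1.78 ± 0.338, edgeR adjusted p = 0.0080), a call that held in each of the 11 alternative fits that included it. In SB431542 libraries it was 3.34-fold higher than in iECDCs (1.74 ± 0.417, edgeR adjusted p = 0.017). That call was lost without SB431542 replicates 1 or 3 (adjusted p = 0.050 and 0.078) or iECDC replicates 1 or 2 (adjusted p = 0.069 and 0.076). Between SB431542 libraries and pECDCs the log2 fold change was -0.03 (95% interval -0.77 to 0.72).

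Angpt2 (ENSMUSG00000031465, chromosome 8, 18690263 to 18741562, - strand), the context-dependent Tie2 ligand, had 65, 47 and 67 counts in pECDC replicates 1, 2 and 3, 28, 37 and 19 in iECDC, and 71, 26 and 77 in SB431542 libraries. By FPKM all iECDC libraries were under the pECDC libraries, at 0.376, 0.610 and 0.335 against 0.718, 0.640 and 0.777, and SB431542 replicate 2, at 0.335, lay with the iECDC libraries while the other two, at 1.10 and 1.15, were the highest of the 9. The log2 fold change was -0.71 ± 0.245 in iECDCs against pECDCs (edgeR adjusted p = 0.081), 0.97 ± 0.476 in SB431542 libraries against iECDCs (edgeR adjusted p = 0.15) and 0.27 ± 0.426 against pECDCs (edgeR adjusted p = 0.65), so none passed. Without the filter on low counts the first 2 passed (-0.73 and 0.96, adjusted p = 0.034 and 0.04998), and the first also passed without iECDC replicate 2 (-1.01, adjusted p = 0.030). Without SB431542 replicate 2 the SB431542 libraries passed against iECDCs (1.36, adjusted p = 0.0035) and against pECDCs (0.66, adjusted p = 0.0034), and without iECDC replicate 3 as well the log2 fold change against iECDCs was 1.22 (adjusted p = 0.00016). Angpt2 lies on the opposite strand to Mcph1, which had 452 to 687 counts per library, and since no source used here says that counting used strand, the 2 genes' reads cannot be told apart where they overlap.

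Angptl4 (ENSMUSG00000002289, chromosome 17, 33773750 to 33781575, - strand), which is induced in many tissues by fasting, PPAR ligands and low oxygen, had FPKM values of 24.7, 25.5 and 24.6 in pECDC replicates 1, 2 and 3, 52.7, 47.8 and 33.9 in iECDC, and 33.3, 34.6 and 33.9 in SB431542 libraries. Every library of the other groups was above every pECDC library, and iECDC replicate 3 lay inside the narrow SB431542 range. In iECDCs Angptl4 was 1.78-fold higher than in pECDCs (log2 fold change 0.83 ± 0.140, edgeR adjusted p = 0.0046). In SB431542 libraries it was 1.37-fold higher than in pECDCs (0.45 ± 0.0591, edgeR adjusted p = 0.0020). Both calls held in each alternative fit. In SB431542 libraries against iECDCs the log2 fold change was -0.39 ± 0.163 (edgeR adjusted p = 0.10), and it passed without iECDC replicate 3 (-0.57, adjusted p = 0.013) and with all 9 libraries in the fit (-0.40, adjusted p = 0.041). Of the 7 other angiopoietin and angiopoietin-like genes listed, 2 passed the filter on low counts, Angptl2 and Angptl6, and neither passed the test in any comparison. Angptl2 stood at 8.87, 8.34 and 8.09 mean FPKM in pECDC, iECDC and SB431542 libraries.

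Nrp1 (ENSMUSG00000025810, chromosome 8, 128358604 to 128503363, + strand), a co-receptor for VEGF-A that also binds class 3 semaphorins, was the more abundant neuropilin in every library. Its FPKM was 18.9, 19.3 and 18.2 in pECDC replicates 1, 2 and 3, 20.7, 22.8 and 19.4 in iECDC, and 31.0, 23.8 and 30.5 in SB431542 libraries. The 3 groups did not overlap, although iECDC replicate 3 and SB431542 replicate 2 came close to the next group. Nrp1 rose 1.52-fold in SB431542 libraries against pECDCs (log2 fold change 0.61 ± 0.116, edgeR adjusted p = 0.0078), and this call held in each alternative fit. Against iECDCs it rose 1.37-fold (0.45 ± 0.139, edgeR adjusted p = 0.041), a call lost in 7 of 14 alternative fits, in which the log2 fold change stayed between 0.38 and 0.56 over all 14. The fits that lost it left out any 1 of the iECDC libraries or SB431542 replicates 1 or 3 (adjusted p = 0.13, 0.088, 0.10, 0.15 and 0.14), used log2(FPKM + 0.1) (adjusted p = 0.051), or had the replicate number as a block. In iECDCs against pECDCs the log2 fold change was 0.14 (edgeR adjusted p = 0.21), and 0.20 without iECDC replicate 3 (adjusted p = 0.0043).

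Nrp2 (ENSMUSG00000025969, chromosome 1, 62703285 to 62818695, + strand), the neuropilin that serves VEGF-C and lymphatic vessels, had FPKM values of 1.06, 1.04 and 0.871 in pECDC replicates 1, 2 and 3, 1.62, 1.97 and 1.18 in iECDC, and 1.51, 1.06 and 1.38 in SB431542 libraries. The iECDC libraries were above the pECDC libraries without overlap, and the SB431542 libraries overlapped the iECDC range. Nrp2 rose 1.59-fold in iECDCs (log2 fold change 0.67 ± 0.175, edgeR adjusted p = 0.031). The call was lost in 8 of 13 alternative fits, among them those that left out any pECDC library or iECDC replicates 1 or 2 (adjusted p of 0.066 to 0.13), and without iECDC replicate 3 the log2 fold change was 0.84 (adjusted p = 2.4e-05). Against pECDCs the SB431542 libraries were at a log2 fold change of 0.42 (edgeR adjusted p = 0.081), which passed without SB431542 replicate 2 (0.55, adjusted p = 0.00011). Against iECDCs they were at -0.26 (edgeR adjusted p = 0.38), and at -0.30 without iECDC replicate 3 and SB431542 replicate 2 (adjusted p = 0.023).

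Of the 5 receptor genes listed for these ligands, 2 passed the filter on low counts. Flt1, which encodes VEGFR1 and its soluble form, a trap for VEGF-A, had FPKM values of 4.41, 4.58 and 4.48 in pECDC replicates 1, 2 and 3, 1.29, 1.47 and 1.30 in iECDC, and 4.21, 1.54 and 3.77 in SB431542 libraries. The iECDC libraries were the lowest, SB431542 replicate 2 was just above them, and the other SB431542 libraries came near the pECDC level. Flt1 fell in iECDCs (log2 fold change -1.75 ± 0.0759, edgeR adjusted p = 2.0e-06) and was 2.37-fold higher in SB431542 libraries than in iECDCs (1.24 ± 0.328, edgeR adjusted p = 0.025). Flt4, the gene of VEGFR3, to which VEGF-C and VEGF-D bind, had 2.03, 2.15 and 2.14 FPKM in pECDC, 4.19, 4.17 and 4.15 in iECDC and 4.01, 4.65 and 3.62 in SB431542 libraries. It rose 1.96-fold in iECDCs (0.97 ± 0.0715, edgeR adjusted p = 5.1e-05) and was 1.95-fold higher in SB431542 libraries than in pECDCs (0.97 ± 0.106, edgeR adjusted p = 0.0012). SB431542 libraries and iECDCs overlapped (log2 fold change -0.02, 95% interval -0.29 to 0.26). Kdr, the gene of VEGFR2, had 2 to 9 counts per library, Tek, the gene of Tie2, 0 to 3, and Tie1 0 in all 9, so a difference in these receptors was not detectable at this depth.

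**Figure D4:**
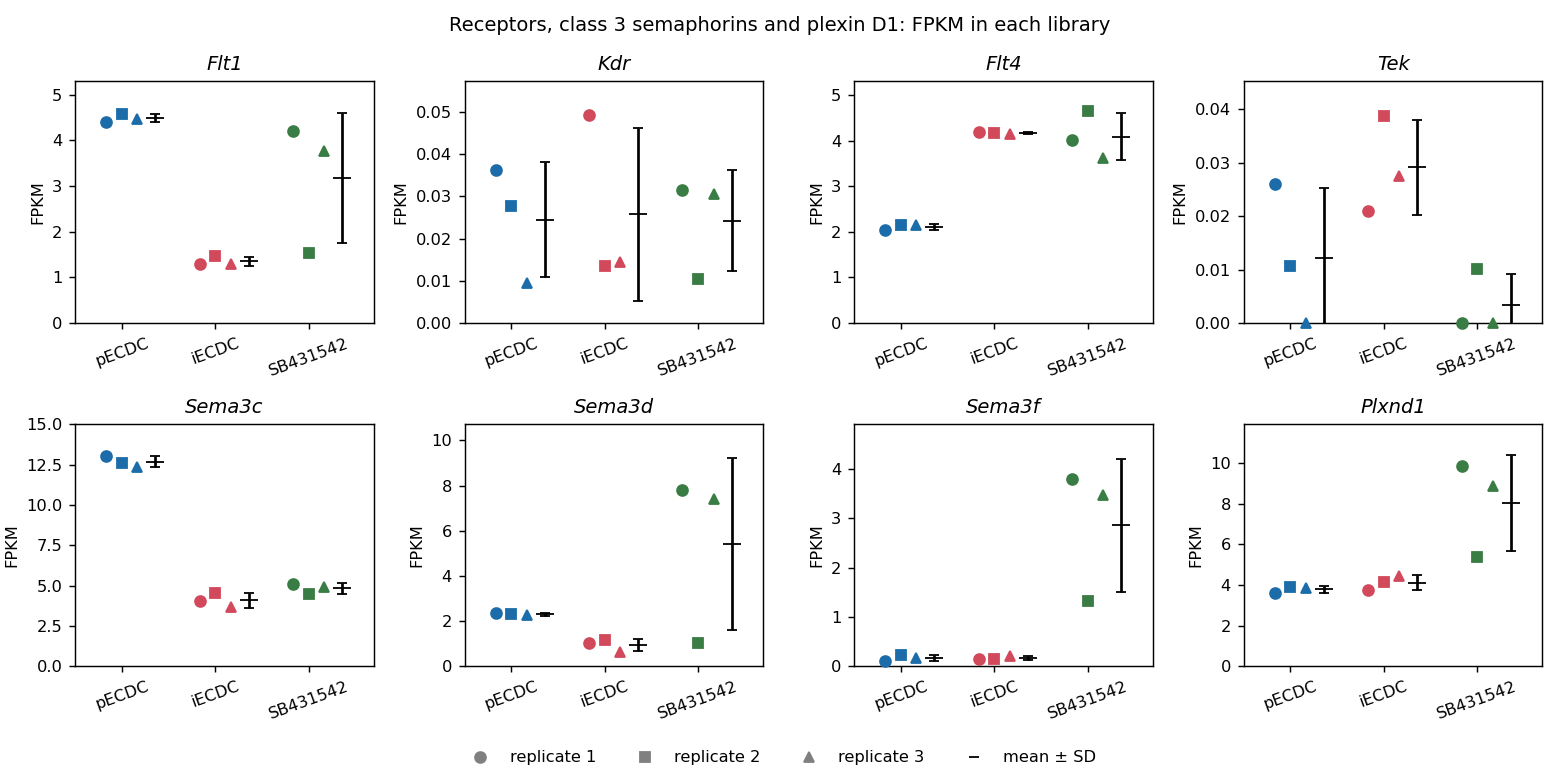
FPKM of 4 receptor genes (upper row) and of 3 class 3 semaphorin genes and the plexin D1 gene (lower row), on vertical axes that start at 0 and differ in scale, in the 3 groups on the horizontal axes, where each symbol is 1 library and the black bar is the mean ± SD of 3. SB431542 replicate 2 lies with the iECDC libraries for Flt1 and Sema3d, and Kdr and Tek stay under 0.05 FPKM in every library.

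Class 3 semaphorins, which compete with VEGFs for neuropilins, and their plexin receptors were counted as a list of 12 genes. In iECDCs against pECDCs, 3 of 10 tested fell and none rose, with a median log2 fold change of -0.07. Sema3c fell by 1.65 on the log2 scale (mean FPKM 12.7 in pECDC, 4.09 in iECDC and 4.83 in SB431542 libraries, edgeR adjusted p = 5.3e-06), and Sema3d and Sema3a fell by 1.30 and 0.34. Of 11 tested in SB431542 libraries against iECDCs, 6 rose and 1 fell, with a median of 0.81. Sema3f, whose product binds neuropilin 2, had 0.143, 0.140 and 0.213 FPKM in iECDC replicates 1, 2 and 3 and 3.81, 1.32 and 3.47 in SB431542 libraries, so the groups did not overlap (log2 fold change 4.13 ± 0.457, edgeR adjusted p = 0.0012). Plxnd1, the receptor through which semaphorin 3E acts on endothelial cells, stood at 4.12 mean FPKM in iECDC and 8.03 in SB431542 libraries (0.98, edgeR adjusted p = 0.013). Plxna2 rose by 0.99, and Sema3b had 3 to 4 counts per iECDC library and 14 to 37 per SB431542 library. Sema3b passed the filter on low counts only through the SB431542 libraries, so it could hardly count other than as a rise. Sema3e itself fell by 0.67 on the log2 scale (edgeR adjusted p = 0.044). Sema3d was at 7.82, 1.04 and 7.39 FPKM in SB431542 replicates 1, 2 and 3 and at 0.628 to 1.15 in iECDC libraries, so replicate 2 lay inside the iECDC range.

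VEGF-C and VEGF-D are made as precursors that proteases cut, with CCBE1 as a cofactor for VEGF-C. Of the 6 listed genes of this step, 1 of 5 tested fell in iECDCs (Ccbe1, log2 fold change -0.93, edgeR adjusted p = 0.013). With SB431542, 2 of 4 tested rose against iECDCs. Ccbe1 had 0.443, 0.416 and 0.274 FPKM in iECDC replicates 1, 2 and 3 and 0.953, 0.640 and 1.05 in SB431542 libraries (log2 fold change 1.22, edgeR adjusted p = 0.013), and the protease gene Adamts14 stood at 3.53 and 6.10 mean FPKM (0.80, edgeR adjusted p = 0.013). Furin, which cuts many precursors, was at 19.5, 21.3 and 18.7 mean FPKM in pECDC, iECDC and SB431542 libraries and passed in no comparison.

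Low oxygen induces Vegfa and Angptl4 through the HIF factors, and 2 lists followed that pathway. Of 8 tested regulators, 1 rose in iECDCs against pECDCs, 4 rose in SB431542 libraries against iECDCs and none fell. Epas1, the gene of a HIF alpha subunit, was at 0.353, 0.819 and 1.67 mean FPKM in pECDC, iECDC and SB431542 libraries, with log2 fold changes of 1.21 (edgeR adjusted p = 0.0030) and 1.04 (edgeR adjusted p = 0.027) in these comparisons. Hif1a stood at 36.6, 30.2 and 40.4 mean FPKM and passed in no comparison. Of the 23 listed target genes other than the 10 factors, 2 rose and 5 fell in iECDCs (median log2 fold change -0.23), among them Adm, Slc16a3 and Bnip3, which fell by 0.84, 0.68 and 0.67. Against iECDCs, 9 rose and 3 fell in the SB431542 libraries (median 0.22), with Ndrg1 at 1.43 and Bnip3 at 1.09 and, in the other direction, Ddit4 at -1.74. Vegfa, a member of the same known target set, passed in neither of these comparisons.

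PPAR factors are known to induce Angptl4, and 13 of 15 other listed PPAR target genes were tested. In iECDCs against pECDCs, where Angptl4 rose, 2 of them rose and none fell, with a median log2 fold change of -0.01. These were Pdk4, which restrains pyruvate oxidation (1.37, edgeR adjusted p = 7.7e-05), and Plin2, a lipid droplet protein gene (0.79, edgeR adjusted p = 0.0011). Of the same 13, 5 rose and 2 fell in SB431542 libraries against iECDCs, with a median of 0.44. Pdk4 and Plin2 fell by 0.89 and 0.65, and the acyl-CoA thioesterase genes Acot1 and Acot2 were at 0.98 and 0.96.

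Since SB431542 blocks the TGF-β receptor, 20 TGF-β target genes were counted beside the angiogenic factors. Of 19 tested in SB431542 libraries against iECDCs, 9 fell and 1 rose, with a median log2 fold change of -1.02. The 1 that rose was Tgfbi, at 0.608 mean FPKM in iECDC and 7.01 in SB431542 libraries (log2 fold change 3.53, edgeR adjusted p = 0.0040). Pmepa1, a feedback inhibitor of the pathway, had 64.1, 66.4 and 70.5 FPKM in iECDC replicates 1, 2 and 3 and 2.54, 5.27 and 2.32 in SB431542 libraries (log2 fold change -4.29, edgeR adjusted p = 0.00035). In this gene replicate 2 was the least low of the SB431542 libraries, as it was the least high for Vegfd and Flt1, and the part of this library's difference in those results was not tested. In iECDCs against pECDCs 3 of 20 rose and 3 fell.

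Among 15 other pro-angiogenic genes, 4 of 14 tested rose and 5 fell in iECDCs against pECDCs, with a median log2 fold change of -0.36. Hgf, a growth factor for endothelial cells, fell by 3.04 on the log2 scale (mean FPKM 9.94 and 1.20, edgeR adjusted p = 0.00014) and Fgf2 by 1.20 (18.8 and 8.25, edgeR adjusted p = 7.4e-05). Mdk had 130 to 165 counts per pECDC library and 1 to 5 per iECDC library, and it passed the filter on low counts only through the pECDC libraries. Of the 14, 3 rose and 6 fell in SB431542 libraries against iECDCs, with a median of -0.35. Hgf rose by 2.42 on the log2 scale to 6.45 mean FPKM, and Fgf2 fell by 3.52 to 0.702, so these factors moved in opposite directions from each other. Ptn had 1 to 5 counts per iECDC library and 114, 19 and 157 in SB431542 replicates 1, 2 and 3. It passed the filter only through the SB431542 libraries, so it could hardly count other than as a rise.

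Of 14 genes listed as inhibitors of angiogenesis, 1 of 9 tested rose and 5 fell in iECDCs against pECDCs, with a median log2 fold change of -0.65. The 1 that rose was Vash2 (0.34, edgeR adjusted p = 0.026), whose product is not an established inhibitor, so the list is not of inhibitors only. Thbs2, the thrombospondin 2 gene, was at 24.4, 10.1 and 32.5 mean FPKM in pECDC, iECDC and SB431542 libraries (log2 fold changes of -1.29 and 1.69 in iECDCs against pECDCs and SB431542 libraries against iECDCs, edgeR adjusted p = 1.3e-05 and 0.0015). Col18a1, the source of endostatin, fell by 0.88 in iECDCs. With SB431542, 4 of 10 tested rose against iECDCs and 2 fell, with a median of 0.37, and Timp3, an inhibitor of metalloproteinases and of VEGFR2, fell by 1.18 (edgeR adjusted p = 0.00084). Thbs1 was far more abundant than any of the 10 factors, at 1881, 1965 and 1406 mean FPKM, and passed in neither comparison.

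Against pECDCs, the SB431542 libraries had 5 semaphorin and plexin genes higher and 3 lower of 11 tested, 1 processing gene higher of 5, and 5 HIF regulators higher of 8. Of the 23 HIF targets 8 were higher and 5 lower, of 13 PPAR targets 5 were higher, and of 19 TGF-β targets 1 was higher and 9 lower. Among the other pro-angiogenic genes 2 of 14 were higher and 7 lower, and in the list of inhibitors 2 of 10 were higher and 3 lower. Of the genes counted, Sema3b and Ptn passed the filter on low counts only through the SB431542 libraries, and Mdk only through the pECDC libraries. The share of all genes tested that was higher or lower in this comparison was 17.9% and 17.0%, as given above.

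Marker genes of several cell types were counted, which describes the libraries and does not settle where labels and methods of the study differ. All 7 markers of cardiosphere-derived cells were above the floor of 3 counts in at least 1 library of each group. Of the 7, 6 reached 1 FPKM in every pECDC and iECDC library, all but Upk3b, and 7 did in every SB431542 library. Their summed FPKM was 638 to 641 in pECDC, 732 to 756 in iECDC and 531 to 546 in SB431542 libraries. The summed FPKM of 14 endothelial markers was 5.75 to 6.41 in pECDC, 2.48 to 2.87 in iECDC and 3.34 to 6.03 in SB431542 libraries, with 8, 9 and 8 of the 14 at or under 3 counts in every library of the group, among them Pecam1, Tek and Tie1. Flt1 and Egfl7 were the endothelial markers that reached 1 FPKM. Of 8 pericyte markers 2, 4 and 4 were at the floor in the 3 groups, of 10 haematopoietic markers 5, 5 and 6, and of 11 cardiomyocyte markers 8, 9 and 9. For the haematopoietic markers the summed FPKM was 11.9 to 13.4 in pECDC, 11.2 to 16.05 in iECDC and 16.0 to 17.7 in SB431542 libraries. In each group 3 of them reached 1 FPKM in every library, Csf1r and Cd14 in all groups. For the cardiomyocyte markers the sum was 1.09 to 1.39, 1.53 to 2.31 and 0.328 to 1.11 FPKM in the same order. The summed pericyte level was 37.2 to 38.0 in pECDC, 24.4 to 28.7 in iECDC and 37.9 to 73.8 FPKM in SB431542 libraries, and the part of other cells in the results above was not tested.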

How the data were processed

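RNA of 9 libraries was sequenced. The authors deposited raw read counts per gene, without normalization, and FPKM values. Each FPKM is the count over the gene's length and over 1 factor per library. The submitters' processing notes list Bowtie2 2.0.6, TopHat2 2.0.9 and build mm9, whereas the start and end of 53499 of 54532 genes, and of 9 of the 10 members (not Angptl4), are those of GENCODE release 21 on GRCm38. The coordinates printed are the table's own. The counting program is not given in the sources used here. The deposited fold changes and p-values of the authors' own comparisons were not used.

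Libraries were grouped by their labels. Tests used the quasi-likelihood method of edgeR 4.0.16 under R 4.3.3 on the counts of the 6 libraries compared (TMM, filterByExpr with a minimum count of 10 and a minimum total of 15, Benjamini-Hochberg adjustment over all genes tested). A printed ± after a log2 fold change is the SE. Alternatives were DESeq2 1.42.0, RLE size factors, no filter, all 9 libraries in 1 fit, leave-one-out fits, a block for the replicate number, and limma 3.58.1 on log2(FPKM + 1) or log2(FPKM + 0.1) for genes with an FPKM of at least 1 in 3 libraries. Genes at 3 counts or fewer in every library of a group were taken to be at the floor, which covers counting error only. The method was tried on simulated counts, with changes placed only in genes with many counts and with no library that stood apart. The simulation therefore does not cover genes with few counts, such as Angpt1, or groups with an outlying library. Figures were drawn with matplotlib 3.10.9.

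All 10 members were named. From 15 further lists, written by hand, the genes named are up to 3 per list and comparison with the largest change among those with an adjusted p under 0.05 and no overlap between groups, and up to 3 more at their level for a known role. The members and lists were chosen with earlier results of these data known. Vash2 and Tgfbi are named as well, each as the 1 gene of its list that rose in the comparison given. Single results of some listed genes are left out.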

Additional observations from a re-analysis of the deposited data

How the results depend on the processing

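For the 10 genes in 3 comparisons, the alternative fits gave 382 results, each of 1 gene in 1 fit. The genes share each fit, so these results are not independent. In 329 the direction and the side of the threshold were those reported, in 26 a call was lost, in 17 one was gained and in 10 the direction turned. Vegfd and Vegfb in both SB431542 comparisons and Angptl4 and Angpt1 in iECDCs kept their calls throughout. The number of the 10 genes that passed in iECDCs against pECDCs was 4, and it was 7 without a filter, 2 with all 9 libraries in the fit, 2 by limma with either pseudocount, and 3 to 7 when 1 library was left out. All genes passing there went from 2258 to 671 with all 9 libraries and to 1036 to 4467 without 1 library (highest without iECDC replicate 3, and 1036 to 1065 without any 1 pECDC library). In SB431542 libraries against iECDCs the count of 5 became 3 by limma on log2(FPKM + 1), 2 on log2(FPKM + 0.1), 2 to 6 without 1 library, and 9 without iECDC replicate 3 and SB431542 replicate 2, with 4061 genes becoming 1707 to 7001 (highest without SB431542 replicate 2, and 1707 to 1886 without iECDC replicates 1 or 2 or SB431542 replicates 1 or 3) and 8951. Against pECDCs 4881 genes became 2453 to 9188 without 1 library (highest without SB431542 replicate 2, 2453 to 2522 without any 1 pECDC library and 3181 without SB431542 replicate 1). The directions that turned belonged to differences that had not passed, and without 1 library their log2 fold changes ranged as follows. Vegfb in iECDCs ranged from -0.12 to 0.0057 (without iECDC replicate 2). In SB431542 libraries against iECDCs, Vegfa ranged from -0.30 to 0.062 (without iECDC replicate 1) and Vegfc from -0.27 to 0.28 (without SB431542 replicate 2, and 0.0092 without iECDC replicate 2), with 0.28 also when iECDC replicate 3 was left out as well. Against pECDCs, Vegfc ranged from -0.49 to 0.065 (without SB431542 replicate 2), Angpt1 from -0.34 to 0.17 (above 0 without SB431542 replicates 1 or 2 or pECDC replicate 3) and Angpt2 from -0.0037 (without SB431542 replicate 3) to 0.66. The causes were not tested. Pgf, Angpt1 and Angpt2 were under the FPKM minimum of the limma fits. Same-numbered libraries deviated with correlations of -0.207 to 0.0329, so no positive link between them was seen. Deviations from a mean of 3 libraries cannot show whether the numbers mark a shared preparation. With the replicate number as a block, 4, 4 and 5 of the 10 genes and 1791, 3038 and 3886 of all genes passed in the 3 comparisons. Nrp1 against iECDCs then lost its call (adjusted p = 0.11). Angpt1 had the fewest counts of the 10 genes, at 4 to 26 per library.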
